A study of Mus musculus with 4 samples.

Results

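The transcription factors Irf8, Irf4, Batf3, Zbtb46, Nr4a1, Klf4, Spi1, Id2, Cebpb and Pou2f2 were followed across the dendritic cells, monocytes, macrophages and neutrophils of the mouse ovary and across 2 ages. They were chosen by symbol as 10 of the 31053 genes in the deposited single-cell matrices, and each symbol had 1 row. The samples were CD45+ CD11b+ cells sorted from ovaries of wild-type C57BL/6J mice, labelled 3 months (harvested at 2 to 3 months, 6 animals) and 15 months (14 to 17 months, 5 animals). The labels name no transgene and no treatment, and both ages share the strain, genotype and sort. Ovaries were dissociated with collagenase, and the cells of each age were split over 3 hashtag pools of at most 2 animals, of which 1 pool at 15 months held a single animal. Each age was 1 sequencing library, so age and library cannot be told apart, and the p-values below measure the spread between pools.

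Hashtag pools were recovered with HTODemux, and 5670 singlets were kept: 1837 of 3135 barcodes at 3 months and 3833 of 4939 at 15 months. A kept barcode had at least 500 genes, at least 1000 gene UMIs and at most 10% mitochondrial UMIs. The libraries held 27277073 and 45060166 gene UMIs and shared 3 barcodes. Clusters were named from marker lists, with the 10 factors and 37 related factors hidden from the clustering genes, and 3708 cells fell into 7 myeloid classes: 1700 macrophage-like, 502 non-classical monocyte-like, 489 cDC2-like, 452 neutrophil-like, 267 classical monocyte-like, 177 cDC1-like and 121 mature DC-like cells. The sort was not pure for myeloid cells, since 386 NK cell-like, 251 B cell-like, 123 T cell-like and 283 stroma-like cells were also kept. Itgam, which encodes CD11b, had a UMI in 73.4% of cDC2-like but 10.2% of cDC1-like and 14% of mature DC-like cells. Ptprc, which encodes CD45, had a UMI in 82.6% to 100% of the cells of the 7 classes. Erythroid markers took 0.0397% to 0.196% of the UMIs of each class at 3 months and 0.000623% to 0.00927% at 15 months. Their part in the values of the factors was not tested.

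As background, Spi1 encodes PU.1, the factor that myeloid development depends on as a whole, and Cebpb encodes a leucine zipper factor of monocytes, macrophages and granulocytes. Irf8 and Batf3 are required for the type 1 conventional dendritic cell (cDC1), which cross-presents antigen, and Id2 acts with them by holding back E proteins. Irf4 and Klf4 are used by type 2 conventional dendritic cells (cDC2), and Zbtb46 marks conventional dendritic cells over other myeloid cells. Nr4a1 is required for the non-classical, patrolling monocyte, Klf4 for monocytes more broadly, and Pou2f2 encodes Oct2, best known in B cells.

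The start-site sequences of 3 factors that mark the cDC1-like and non-classical monocyte-like classes below are shown, from RefSeq on GRCm38.p6. They were picked and not set by a rule, and other factors highest in these classes, among them Klf4 and Pou2f2, are not printed. Promoter windows of 250 bases before to 50 after the start were at hand for 9 of the 10 members, Spi1 being the other. Irf8 and Batf3, both highest in cDC1-like cells, are printed over the 250 bases before the start, with matches to the gamma-activated site TTCNNNGAA in capitals, a letter pattern that reads the same on both strands. Nr4a1 is printed with the CRE-like letters TGCGTCA in capitals, searched on both strands and chosen after its window was read.
Irf8, chr8:120736108-120736357, plus strand: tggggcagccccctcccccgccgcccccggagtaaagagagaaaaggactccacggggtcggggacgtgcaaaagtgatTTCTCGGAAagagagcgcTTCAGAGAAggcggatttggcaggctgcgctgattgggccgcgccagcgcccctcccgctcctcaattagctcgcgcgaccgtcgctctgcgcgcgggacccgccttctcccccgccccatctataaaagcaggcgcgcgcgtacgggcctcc
Batf3, chr1:191098164-191098413, plus strand: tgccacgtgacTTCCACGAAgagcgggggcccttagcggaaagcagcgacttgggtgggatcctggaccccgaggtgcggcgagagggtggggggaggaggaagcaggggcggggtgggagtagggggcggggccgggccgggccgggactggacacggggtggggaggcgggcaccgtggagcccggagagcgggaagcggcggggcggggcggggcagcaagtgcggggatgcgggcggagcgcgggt
Nr4a1, chr15:101266596-101266845, plus strand: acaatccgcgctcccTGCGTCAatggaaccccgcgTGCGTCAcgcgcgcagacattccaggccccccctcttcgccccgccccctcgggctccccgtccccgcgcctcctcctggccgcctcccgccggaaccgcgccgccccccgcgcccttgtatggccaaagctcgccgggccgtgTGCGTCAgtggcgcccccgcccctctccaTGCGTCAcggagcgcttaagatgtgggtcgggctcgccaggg

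Irf8 has a second RefSeq window (chr8:120738389-120738688), in which none of the motifs searched was found. The pattern TTCNNNGAA occurred 2 times in the printed Irf8 window, beginning at positions -171 and -153 from the start, and 1 time in that of Batf3, at -239. It was in 8.3% of 32851 RefSeq windows of the same length, and 0.457% held 2 or more. This pattern was taken from a longer set of letter patterns searched in the windows of all members, and 2 of the 9 members held it. TGCGTCA occurred 4 times in the Nr4a1 window, at -235, -215, -71 and -42, where 2.12% of all windows held it at all and 1 window, this one, held it 4 times. Cebpb was the other member with a match to TGCGTCA. The GC box letters GGGCGG were in the windows of 8 of the 9 members against 35.7% of all windows. The Irf8 window ends at the base before the GENCODE M21 gene (chr8:120736358-120756694), whereas the RefSeq starts of Batf3 and Nr4a1 lie inside their GENCODE spans (chr1:191097847-191108945 and chr15:101254269-101274795). A match is a run of letters and not a measured binding site.

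Levels are counts per 1000000 UMIs of a class in a pool (CPM), given over pools with at least 10 cells of the class. Class differences are a description without a test, because classes are clusters of the same cells. Levels of different genes were not set against each other.

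Irf8 was highest in cDC1-like cells, at 1477, 1109.6 and 1224 CPM in the 3-month pools and 1471 CPM in the 15-month pool that had enough cells. All 4 pools stood above every pool of the other 6 classes. The mean of 1320.5 ± 183 CPM (SD, n = 4 pools) was 4.3-fold that of mature DC-like cells (307 ± 171, n = 4), 5.87-fold that of macrophage-like cells (225 ± 29, n = 6) and 33.5-fold that of cDC2-like cells (39.4 ± 23, n = 6). Mature DC-like, macrophage-like and both monocyte-like classes overlapped in Irf8, and classical and non-classical monocyte-like cells had nearly the same mean, 194.1 and 193.8 CPM. In neutrophil-like cells Irf8 had UMIs in 1 of the 6 pools (17.4 CPM there). Outside the myeloid classes, NK cell-like cells overlapped cDC1-like cells in Irf8, at 1325 to 1821 CPM in 6 pools.

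Batf3, the leucine zipper partner of Irf8 at cDC1 genes, was also highest in cDC1-like cells. Its level in cDC1-like cells was 238, 291 and 229 CPM at 3 months and 227 CPM at 15 months, 2-fold that of mature DC-like cells (123 ± 12.4 CPM, n = 4) and 2.06-fold that of cDC2-like cells (119.7 ± 25 CPM, n = 6), with no overlap against either. Mature DC-like and cDC2-like cells overlapped. Macrophage-like cells had 67.1 ± 25.3 CPM, with 115 CPM in 15-month pool 3 and at most 72.1 CPM elsewhere. Classical monocyte-like cells ran from 0 to 97.5 CPM, and non-classical monocyte-like and neutrophil-like cells were lower, at 19.8 ± 17.7 and 4.14 ± 7.96 CPM.

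Zbtb46 marked dendritic cells as a group. It had 27.8, 62.4 and 28.8 CPM at 3 months and 33.3 CPM at 15 months in cDC1-like cells, 19.6 to 56 CPM in mature DC-like cells and 4.29 to 37.7 CPM in cDC2-like cells, and these 3 classes overlapped. Every cDC2-like pool was above every macrophage-like pool, where the highest was 2.92 CPM. No UMI of Zbtb46 was seen in 267 classical monocyte-like cells, which allows up to 1.52 CPM, or in 452 neutrophil-like cells, which allows up to 3.04 CPM, each from 3 counts over the class and for counting error only. Zbtb46 was also found outside the dendritic classes, at 6.63 to 20.9 CPM in stroma-like cells and at 26.3 and 62.4 CPM in the 2 endothelial-like pools with enough cells.

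Irf4 was highest in cDC2-like cells, whose pools had a lowest level of 10.7, a median of 41.9 and a highest of 46.8 CPM. These pools lay above every pool of macrophage-like and cDC1-like cells but overlapped mature DC-like cells (0 to 21.5 CPM) and both monocyte-like classes. The related factors Irf4 and Irf8 ran opposite ways in the conventional dendritic classes: cDC1-like cells had Irf4 UMIs in 1 of 4 pools (2.96 CPM), and cDC2-like cells had 24.9 to 36 CPM of Irf8 in 5 pools and 85.6 CPM in 3-month pool 3. B cell-like cells, with 60.8 to 125 CPM in 3 pools, had more Irf4 than any myeloid class.

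Id2, the inhibitor of E proteins, was highest in mature DC-like cells, at 1443 and 769 CPM in the 3-month pools and 1264 and 1345 CPM in the 15-month pools. This was 2.09-fold the mean of cDC1-like cells (578 ± 182 CPM, n = 4), higher in 3 of 3 shared pools although the ranges overlapped, because 15-month pool 2 reached 829 CPM in cDC1-like cells. Non-classical monocyte-like cells (524 ± 81.3 CPM) and macrophage-like cells (427 ± 117 CPM) came next and overlapped. Id2 was lower in cDC2-like cells, at 171 ± 68.6 CPM, 7.04-fold below mature DC-like cells with no overlap. Classical monocyte-like (246 ± 70.5 CPM) and neutrophil-like cells (105 ± 41 CPM) overlapped cDC2-like cells. NK cell-like cells had 777 to 1140.0 CPM.

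**Figure D1:**
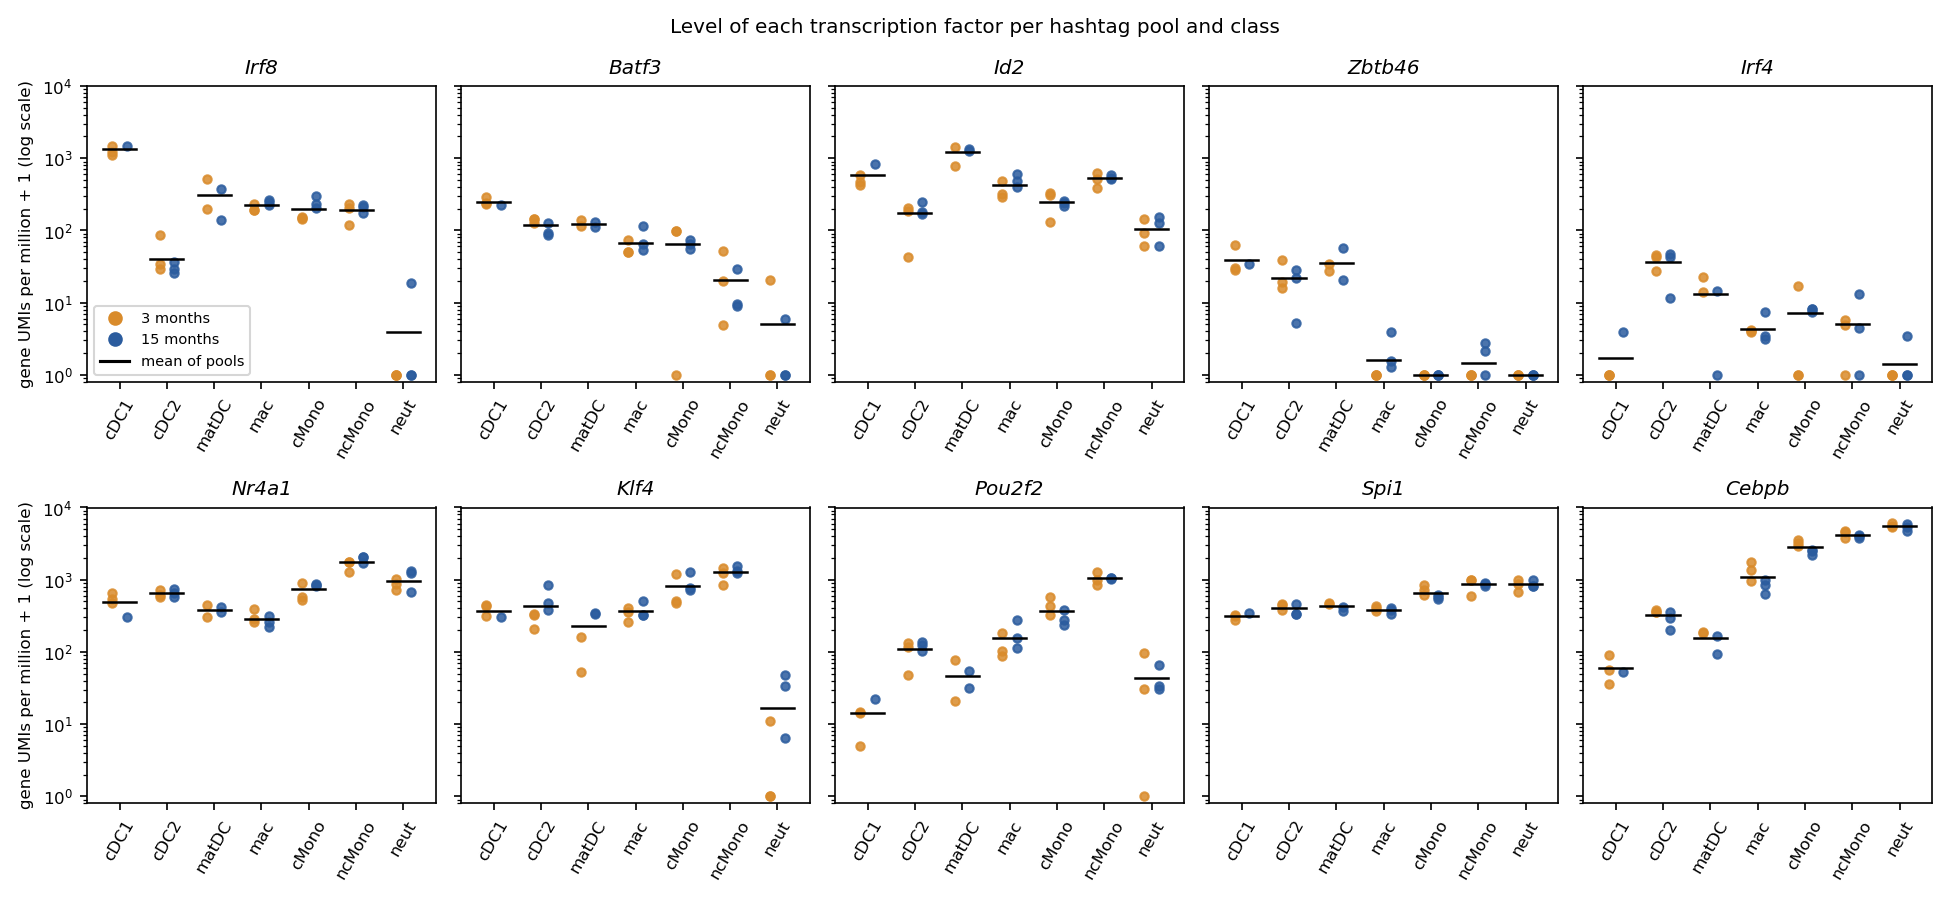
Level of each factor in the 7 classes, as CPM plus 1 on a log axis. Each point is a pool with at least 10 cells, orange at 3 months and blue at 15 months, and the line is the mean of pools. Irf8 and Batf3 peak in cDC1-like cells, Irf4 in cDC2-like cells, Nr4a1, Klf4 and Pou2f2 in non-classical monocyte-like cells (ncMono), and Cebpb is lowest in cDC1-like and highest in neutrophil-like cells.

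The monocyte factors shared a peak in non-classical monocyte-like cells. Nr4a1, an orphan nuclear receptor and immediate early gene, had a lowest level of 1294, a median of 1766 and a highest of 2065 CPM there. The mean of 1777 ± 280.2 CPM (n = 6) was 2.36-fold that of classical monocyte-like cells (753 ± 159.7 CPM) with no overlap. Against neutrophil-like cells (969.5 ± 268 CPM) it was 1.83-fold, higher in 6 of 6 pools, with the lowest monocyte pool just under the highest neutrophil pool (1300.3 CPM). The cDC2-like mean was 651 ± 72.1, the cDC1-like 491 ± 143 (n = 4) and the mature DC-like 383 ± 64.6 CPM (n = 4). Macrophage-like cells had the lowest mean, 287.5 ± 57.6 CPM, and overlapped mature DC-like cells.

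Klf4, a zinc finger factor of monocyte differentiation, ranged from 832 through a median of 1276.5 to 1565 CPM in non-classical monocyte-like cells. Classical monocyte-like cells had 477 to 1265 CPM, lower in 6 of 6 pools although the ranges overlapped. The cDC2-like, cDC1-like and macrophage-like classes had similar means, 426 ± 222, 372 ± 76.1 and 362 ± 87.3 CPM, and overlapped. Neutrophil-like cells stood apart at 0 to 47.3 CPM, below every pool of the other classes. Mature DC-like cells had 52.5 to 349 CPM.

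Pou2f2 had its peak in non-classical monocyte-like cells, with a lowest level of 832, a median of 1030.0 and a highest of 1298 CPM, 2.81-fold the mean of classical monocyte-like cells (370.4 ± 119.8 CPM) and 79.2-fold that of cDC1-like cells (13.1 ± 7.16 CPM, n = 4). Neither comparison overlapped. Macrophage-like cells had 86.4 to 276 CPM. In B cell-like cells, where Oct2 is classically described, Pou2f2 had 318 to 451 CPM.

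Spi1 was found in every myeloid class. It ran from 315 ± 28.7 CPM (n = 4) in cDC1-like cells through macrophage-like (386 ± 33.2), cDC2-like (405 ± 63.5), mature DC-like (430.1 ± 49.7, n = 4) and classical monocyte-like cells (649.8 ± 111) to neutrophil-like (858 ± 118) and non-classical monocyte-like cells (859.9 ± 144), a span of 2.73-fold. The first 4 of these overlapped with their neighbours, as did the last 3, while every classical monocyte-like pool lay above every mature DC-like pool. NK cell-like cells had 0 to 39.7 CPM of Spi1, below every cDC1-like pool.

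The order of the 7 classes in Cebpb had no overlap between any pair of neighbours: neutrophil-like 4714 to 6039, non-classical monocyte-like 3734 to 4653, classical monocyte-like 2165 to 3575, macrophage-like 629.6 to 1732, cDC2-like 202 to 382, mature DC-like 93.4 to 190.2 and cDC1-like 34.7 to 91.1 CPM. The means of the ends, 5472 ± 471 (n = 6) and 58.5 ± 23.6 CPM (n = 4), differed 93.6-fold. The same order held within every pool in which neighbours could be compared.

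Cells were also compared at equal depth, since the median cell had 14424 UMIs in the cDC1-like class and 2094 in the neutrophil-like class. Each cell was thinned to 2000 UMIs, which left out 104 of 1700 macrophage-like and 197 of 452 neutrophil-like cells, at most 15 cells of each other myeloid class and 22 of 386 NK cell-like cells. Irf8 then had a UMI in 90.4% of cDC1-like cells (87.7% to 100% over 4 pools), 33.7% of macrophage-like and 4.3% of cDC2-like cells. Before thinning the shares were 98.3%, 73.2% and 16.2%. Shares in classes outside the lineage are given for comparison, and the part of free RNA and of doublets within a hashtag in them was not tested. The thinned Irf8 share was 14.1% in T cell-like (median 5046 UMIs) and 9.64% in stroma-like cells (median 12785 UMIs), both above the cDC2-like share. Irf4 had a UMI in 7.79% of cDC2-like cells thinned (24.9% before) against 3.31% of T cell-like cells.

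At equal depth Nr4a1 had a UMI in 94.1% of non-classical monocyte-like cells (97.8% before thinning) and 32.9% of macrophage-like cells, against 38% of T cell-like and 22.1% of stroma-like cells. Pou2f2 had a UMI in 83.6% of non-classical and 44.5% of classical monocyte-like cells, and in 2.82% of cDC1-like cells, where the T cell-like share was 20.7% and the stroma-like share 7.14%. Cebpb had a UMI in 98.5% of classical monocyte-like, 99.6% of non-classical monocyte-like and 99.6% of neutrophil-like cells. Its 12.4% in cDC1-like cells was below the 44.6% of T cell-like and 42.1% of stroma-like cells. Spi1 had a UMI in 42.9% to 81.9% of the cells of each myeloid class, 1.92% of NK cell-like, 19% of T cell-like and 16.8% of stroma-like cells.

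**Figure D2:**
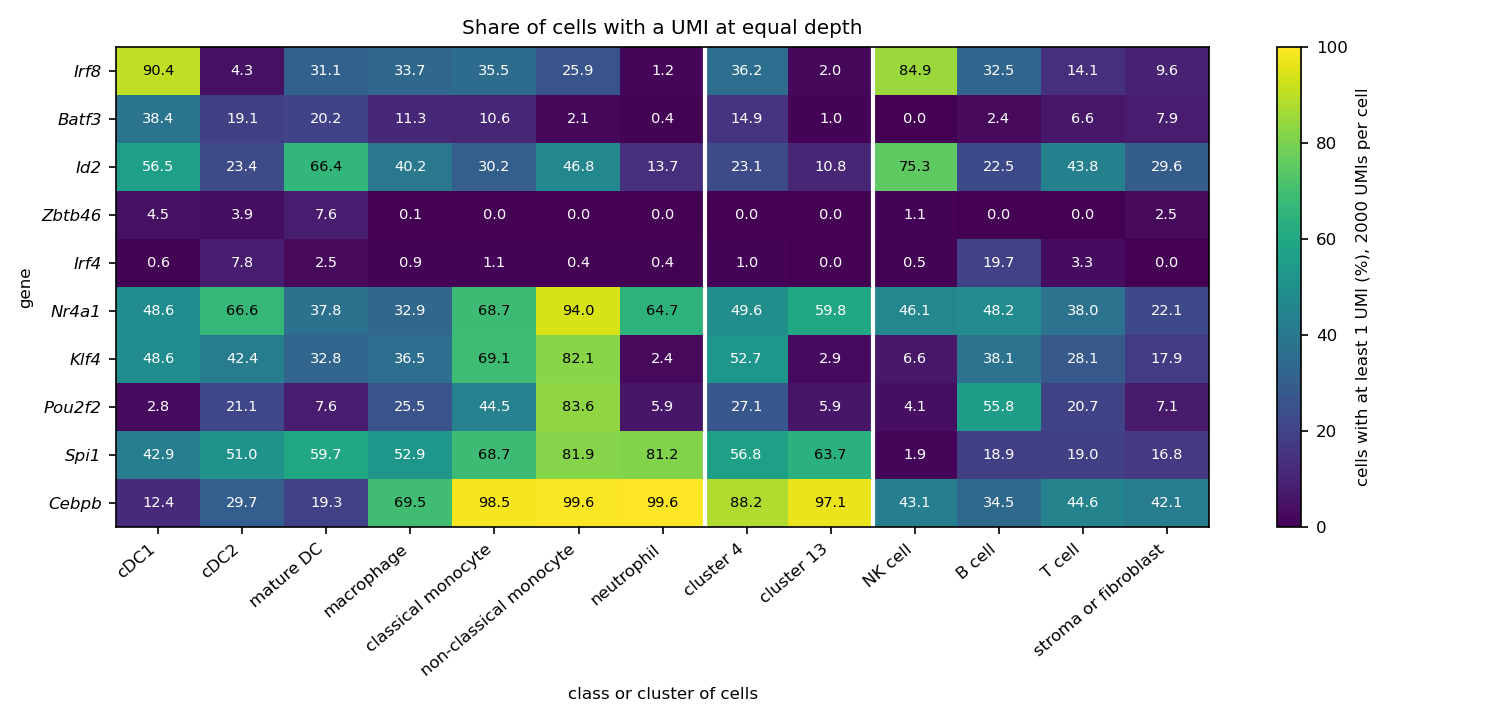
Share of cells with at least 1 UMI of each factor after thinning to 2000 UMIs per cell, in percent, for the 7 myeloid classes (left), unnamed clusters 4 and 13 (middle) and 4 other classes (right). Irf8 was found in 90.4% of cDC1-like and 84.9% of NK cell-like cells, and Cebpb in 12.4% of cDC1-like and 99.6% of neutrophil-like cells.

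Pairs of factors in the same cell were set beside the product of their separate shares, and some pairs lay near it and others did not. In thinned cDC1-like cells Irf8 and Batf3 were both seen in 36.7% of 177 cells, where the product of their shares was 34.7%. Nr4a1 and Pou2f2 were both seen in 78.9% of 487 non-classical monocyte-like cells, with a product of 78.6%. For Nr4a1 and Klf4 in 265 classical monocyte-like cells the values were 52.8% and 47.4%. Irf4 and Batf3 were both seen in 2.66% of 488 cDC2-like cells against a product of 1.48%, Batf3 and Pou2f2 in 4.57% of 1596 macrophage-like cells against 2.89%, and Irf8 and Batf3 in 3.36% of 119 mature DC-like cells against 6.27%. Id2 and Pou2f2 were both seen in 2.66% of cDC2-like cells against 4.93%. These pairs were chosen after their values were seen. The joint shares of a few percent in mature DC-like and cDC2-like cells rest on few cells. No spread over pools was taken, and distance from the product was not tested. The product treats a class as uniform. Within the macrophage-like class, cluster 11, described below, had more Batf3 (288 and 299.9 CPM) and more Pou2f2 (661 and 814 CPM) than clusters 0 and 1. The part of such clusters in the joint shares was not tested. All these shares are descriptions of thinned counts, in which most cells hold few UMIs of a factor.

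The macrophage-like class was made of 4 clusters, and the factors differed among them. The 10 leading genes of clusters 1, 11 and 18 held no macrophage marker, although 10, 8 and 9 of the 10 markers were in at least 20% of their cells. Names changed with the settings. A cluster led by Lipg and Fcrl5 was unnamed at Leiden resolution 0.3, and one led by Spp1 and Arg1 was unnamed with the members kept. At resolution 1.0 a cluster of 181 cells led by Arg1 and Ccl7 was named classical monocyte. Cluster 0 (979 cells, led by Vcam1, Fcrls, C1qa and Mrc1) and cluster 1 (522 cells, led by Spp1, Gpnmb, Arg1 and Fabp5) were present in every pool. Cluster 11 (165 cells, with Lipg, Fcrl5, Fcgr4 and Cd300e among its leading genes) held 7 cells at 3 months and 158 at 15 months, 134 of them in pool 3, so its levels come from 15-month pools 1 and 3. Cluster 18 (34 cells, led by Saa3 and Prg4) had 1420 and 1527 CPM of Cebpb in the 2 pools with enough cells. Pou2f2 was at 661 and 814 CPM in cluster 11, against 134 to 230.2 CPM in cluster 0 and 29.1 to 97.1 CPM in cluster 1. Batf3 was at 288 and 299.9 CPM in cluster 11, where cDC1-like cells had 227 to 291 CPM, against 53.3 to 83.7 and 24.1 to 46.7 CPM. Id2 was at 928 and 884 CPM in cluster 11. Cebpb was at 345 and 535 CPM there, below every pool of cluster 0. Irf8 was lower in cluster 11, at 77.3 and 131 CPM, than in clusters 0 (207 to 304 CPM) and 1 (153 to 293 CPM). These factors were hidden from the clustering genes, although genes that vary with them were not.

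Cluster 4, 488 cells led by Ccr2, Ms4a4c and Ms4a6b that had both macrophage and classical monocyte markers and was not named, held 108 cells at 3 months and 380 at 15 months. Its mean Cebpb of 1813 ± 250.1 CPM (n = 5) lay between the macrophage-like mean of 1081 and the classical monocyte-like mean of 2853, and overlapped the macrophage-like range. Its Id2, 95.9 to 196 CPM, was below every macrophage-like pool and overlapped classical monocyte-like cells. Cluster 13, 130 cells with neutrophil markers of which 119 were from 15 months, had 4845 CPM of Cebpb, 716 of Spi1, 829.5 of Nr4a1 and 22.6 of Klf4 in the 1 pool with at least 10 cells, each within the neutrophil-like range.

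**Figure D3:**
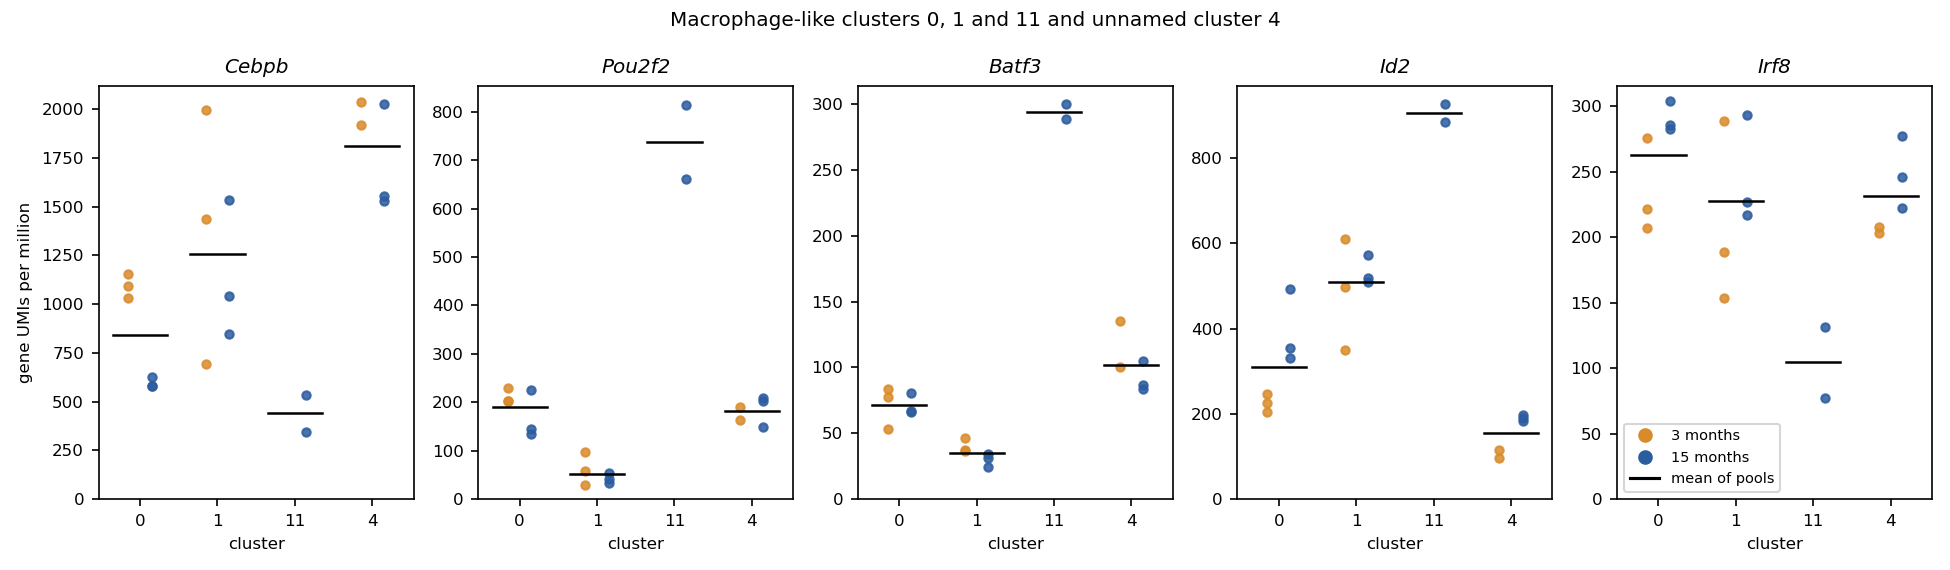
Levels of 5 factors, as CPM on a linear axis, in macrophage-like clusters 0, 1 and 11 and in unnamed cluster 4. Points are pools with at least 10 cells (orange 3 months, blue 15 months) and lines are means of pools. Cluster 11 has 15-month pools only, with Pou2f2 at 661 and 814 and Cebpb at 345 and 535. In cluster 0 the Cebpb pools of the ages are apart.

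The genes whose levels ran most like each member were taken over 38 pool-by-class sums of the 7 classes, among 4955 genes with a mean of at least 20 CPM. They are named by Pearson's r of log2(CPM + 1) as a description, since sums of a pool share a library and sums of a class share a cell type. Cebpb ran with Cyp4f18 (r = 0.96) and Msrb1 (0.96). Pou2f2 ran with Clec4a1 (0.94), Adgre4 (0.88) and Arhgef10l (0.88), of which Adgre4 is among the markers that named non-classical monocytes. Zbtb46 ran with H2-Oa (0.93), P2ry10 (0.92) and H2-Ob (0.91), where H2-Oa and H2-Ob encode the class II modulator H2-O. Irf4 ran with Tnip3 (0.78), Tnfsf9 (0.77) and Clec10a (0.76), and Tnip3 and Clec10a had named cDC2 cells. Batf3 ran with Fam46c (0.94), Ywhaq (0.89) and Bmyc (0.88). Irf8 ran with Cox7c, Pomp and Htatsf1 (0.90, 0.90 and 0.87), Klf4 with Jarid2, Pld4 and Faim (0.93, 0.92 and 0.92), and Nr4a1 with Rassf5, Stk38 and Stk10 (0.86, 0.84 and 0.82). Spi1 ran with Trem3, Prr13 and Apbb1ip (0.92, 0.91 and 0.90), and Id2 with Psme2, Nudt9 and Ppfibp2 (each 0.77).
Among the members themselves, Cebpb and Zbtb46 ran most against each other (r = -0.92) and Spi1 and Cebpb most together (r = 0.85). Zbtb46 had no UMI in classical monocyte-like and neutrophil-like cells, and Irf8 had a median of 0 CPM over neutrophil-like pools. The weight of such floor values in r was not tested.

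Age was tested in the 5 classes where all 6 pools reached 10 cells, with edgeR's quasi-likelihood test over all genes of the class and Benjamini-Hochberg adjustment. No member passed an adjusted p of 0.05 in any class. A low-count filter left 37 member-by-class tests, 8 members in macrophage-like, 8 in classical monocyte-like, 7 in non-classical monocyte-like, 10 in cDC2-like and 4 in neutrophil-like cells, and the lowest adjusted p among them was 0.155. Over all genes the test called 7 of 8723 in macrophage-like (0.0802%), 11 of 2704 in classical monocyte-like (0.407%), 24 of 3400 in non-classical monocyte-like (0.706%), 6 of 4849 in cDC2-like (0.124%) and 5 of 1810 in neutrophil-like cells (0.276%). At an unadjusted p under 0.05 stood 1 of 8 members in macrophage-like (14.2% of all genes), 3 of 8 in classical monocyte-like (10.7%), 0 of 7 in non-classical monocyte-like (11.9%), 4 of 10 in cDC2-like (9.42%) and 0 of 4 in neutrophil-like cells (5.47%). DESeq2 called 1 member, Cebpb in classical monocyte-like cells, where it called 0.222% of genes, and none in macrophage-like (0.458%), non-classical monocyte-like (0.141%), cDC2-like (0.0966%) or neutrophil-like cells (0.0484%). Pool values in the age comparisons are CPM after TMM scaling.

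Cebpb was the member with the lowest adjusted p. In classical monocyte-like cells it had 3979, 3605 and 3343 CPM at 3 months and 2887, 2847 and 2486 CPM at 15 months. The pools of this class held only 15, 20 and 12 cells at 3 months and 40, 144 and 36 at 15 months. Every 15-month pool was below every 3-month pool, and the log2 ratio of 15 over 3 months was -0.41 (SE 0.11, adjusted p = 0.155, edgeR). DESeq2 gave an adjusted p of 0.0328 for it. In macrophage-like cells Cebpb had 1862, 1366 and 979 CPM at 3 months against 826, 959.8 and 612 CPM at 15 months, with a log2 ratio of -0.81 (SE 0.25, adjusted p = 0.294, edgeR). The pools did not overlap after TMM scaling but did in plain CPM (960.5 at 3 months against 977 at 15 months). In cDC2-like cells the pools were 371, 395 and 406 against 212, 289 and 369 CPM, with a log2 ratio of -0.43 (SE 0.2, adjusted p = 0.526, edgeR). Here too the pools did not overlap after TMM scaling but did in plain CPM (357.8 at 3 months against 357.96 at 15 months). Non-classical monocyte-like and neutrophil-like cells had log2 ratios of -0.15 (SE 0.09) and -0.07 (SE 0.19), and their pools overlapped. The estimate was below 0 in 5 of 5 classes, which share pools and are not independent, and in neutrophil-like cells it turned to 0.15 without a low-count filter and to 0.022 without 3-month pool 1.

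Since the clusters of the macrophage-like class differed in Cebpb and in age, cluster 0 alone and clusters 0 and 1 together were also fitted. This step was added after the clusters were seen. In cluster 0 alone the plain CPM was 1153, 1090.4 and 1029 at 3 months and 582, 628.5 and 579.96 at 15 months, and Cebpb fell by 0.95 on the log2 scale (SE 0.12, adjusted p = 0.00236, edgeR, 16 of 7737 genes called, 0.207%). Cluster 1 was not fitted alone, and its ages overlapped in plain CPM, at 1998, 1436 and 691 against 1039, 1531.5 and 846. With clusters 0 and 1 together the log2 ratio was -0.80 (SE 0.23, adjusted p = 0.341, edgeR). Over all 18 alternatives the class had ratios from -1.01 to -0.56. Without a low-count filter, where 1.25% of genes were called, its adjusted p was 0.0427 (edgeR). Without 3-month pool 3, in which 226 of 268 macrophage-like cells were of cluster 0, the ratio in the whole class was -1.01 (SE 0.21, adjusted p = 0.0437, edgeR), and 290 of 8852 genes were called (3.28%). Genes of the immediate early and dissociation response list lay mostly on the same side in this class: 24 of the 29 measured had a ratio below 0, with a median of -0.27 against 0.01 for all genes, and none passed. Their part in the Cebpb values was not tested.

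Irf8 had estimates of opposite sign in classical monocyte-like and cDC2-like cells. In classical monocyte-like cells it had 169, 161 and 159.95 CPM at 3 months and 253, 331 and 232 CPM at 15 months, without overlap, a log2 ratio of 0.77 (SE 0.24, adjusted p = 0.25, edgeR). The 3-month values rest on only 15, 20 and 12 cells, and the 15-month values on 40, 144 and 36. The log2 ratio was 0.14 with the hashtag ratio rule and 0.42 with the members kept in the clustering genes. The class was another set of cells there, with 723 and 647 cells against 267. Ms4a4c, which led cluster 4, was among its leading genes in both. In cDC2-like cells Irf8 had 29.3, 34.8 and 96.4 against 26.1, 35.7 and 28.7 CPM, a log2 ratio of -0.94 (SE 0.36, adjusted p = 0.473, edgeR). That estimate rests on 3-month pool 3, without which it was -0.05, and the other 5 pools overlapped. In macrophage-like and non-classical monocyte-like cells the log2 ratios were 0.18 (SE 0.14) and 0.15 (SE 0.23). In cDC1-like cells, which were not tested, the 15-month pool of 1471 CPM lay within the 3-month range.

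Klf4 had its largest estimate in cDC2-like cells, with 332, 212 and 375 CPM at 3 months and 404, 466 and 867 CPM at 15 months. The pools did not overlap, and the log2 ratio was 0.92 (SE 0.27, adjusted p = 0.374, edgeR). Without 15-month pool 3, the highest, it was 0.50 (adjusted p = 0.634, edgeR). Without a low-count filter, where 80 of 13457 genes were called (0.594%), its adjusted p was 0.00154. The estimate was above 0 in the 4 classes where Klf4 was measured, which share pools and are not independent. Leaving out 1 pool brought it to -0.15 at the lowest in macrophage-like and -0.016 in non-classical monocyte-like cells. The log2 ratios of Nr4a1 were -0.31 (SE 0.2) in macrophage-like, 0.37 (SE 0.19) in classical monocyte-like, 0.24 (SE 0.12) in non-classical monocyte-like, -0.03 (SE 0.18) in cDC2-like and 0.32 (SE 0.29) in neutrophil-like cells. In macrophage-like cells the ratio of Nr4a1 was -0.56 with clusters 0 and 1 and -0.92 (SE 0.24, adjusted p = 0.236, edgeR) in cluster 0 alone, and -0.13 without 3-month pool 3.

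**Figure D4:**
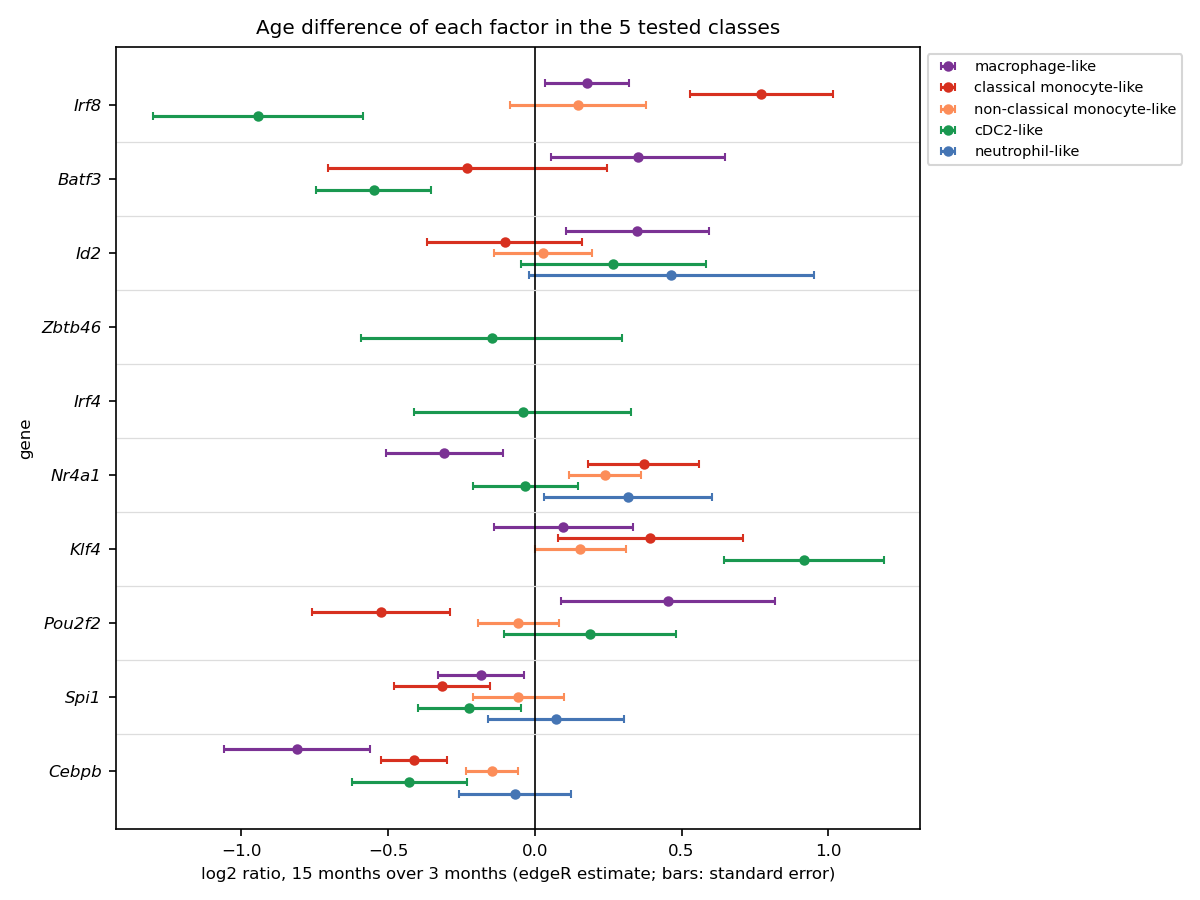
Log2 ratio of 15 over 3 months for each factor in the 5 tested classes, as the edgeR estimate with its standard error. Points are missing where the factor was under the low-count filter. Cebpb estimates lie below 0 in each class, from -0.81 in macrophage-like to -0.07 in neutrophil-like cells, and no ratio passed an adjusted p of 0.05.

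Batf3 in cDC2-like cells had 132, 148 and 162 CPM at 3 months against 90.0, 91.6 and 130.2 CPM at 15 months, without overlap (log2 ratio -0.55, SE 0.2, adjusted p = 0.431, edgeR). Spi1 in classical monocyte-like cells had 687, 796 and 944 against 673, 638 and 625 CPM, also without overlap (log2 ratio -0.32, SE 0.16, adjusted p = 0.534, edgeR). The 3-month pools of that class held 12 to 20 cells. Counting all members, pools of the ages did not overlap for 1 of 8 in macrophage-like cells (20.9% of all genes), 3 of 8 in classical monocyte-like cells (17.4%), 0 of 7 in non-classical monocyte-like cells (19.2%), 3 of 10 in cDC2-like cells (15.4%) and 0 of 4 in neutrophil-like cells (13.3%). Pou2f2 in classical monocyte-like cells had a log2 ratio of -0.52 (SE 0.23, adjusted p = 0.429, edgeR). In macrophage-like cells its ratio was 0.45 (SE 0.36), with 269 CPM in 15-month pool 3, the pool that held most of cluster 11, and -0.18 with clusters 0 and 1 alone. Batf3 there likewise went from 0.35 (SE 0.3) to -0.13. Id2 had ratios between -0.10 and 0.47 in the 5 classes. In macrophage-like cells the Id2 ratio of 0.35 was 0.72 (SE 0.17, adjusted p = 0.175, edgeR) in cluster 0 alone and ran from 0.19 to 0.85 over the alternatives. Irf4 and Zbtb46, measured in cDC2-like cells alone, had ratios of -0.04 (SE 0.37) and -0.15 (SE 0.45).

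**Figure D5:**
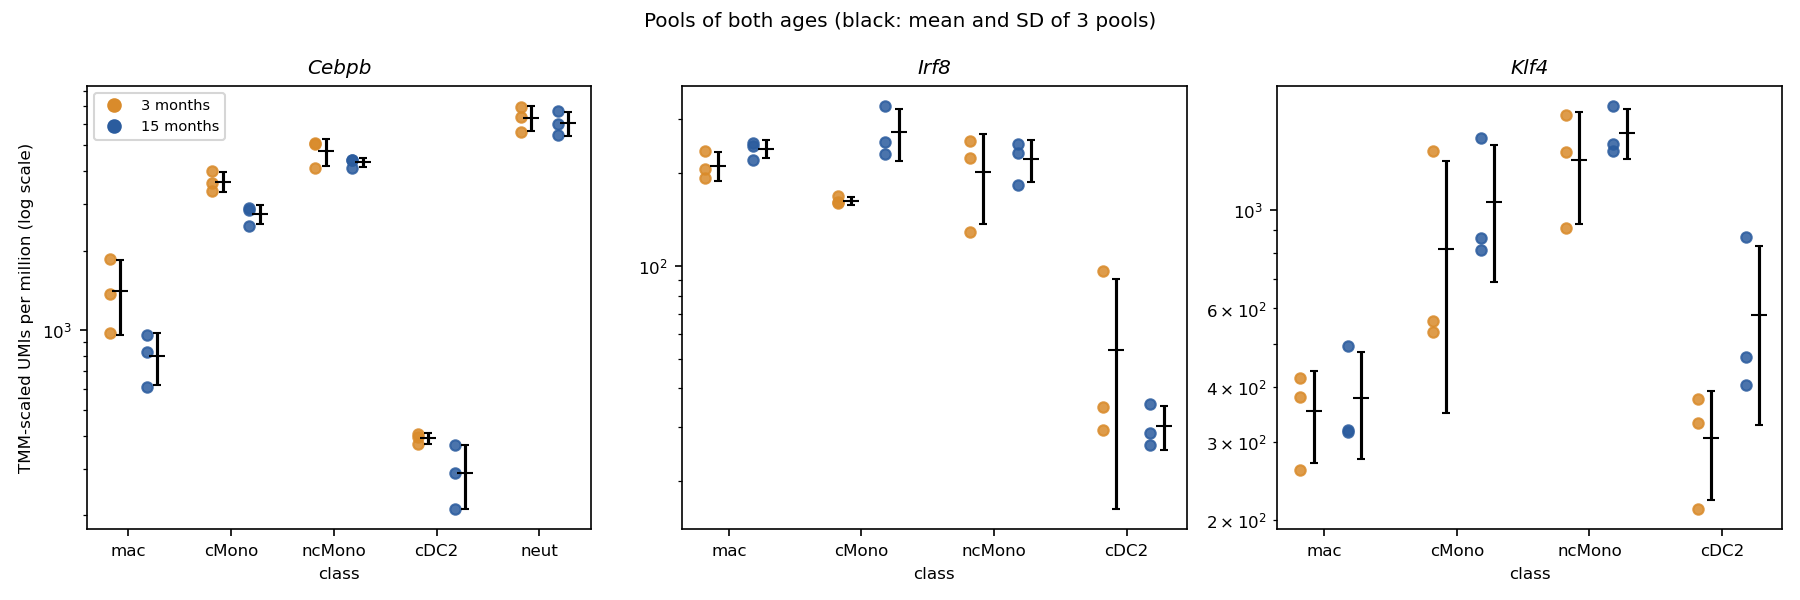
Pools of Cebpb, Irf8 and Klf4 in the tested classes, as TMM-scaled CPM on a log axis, orange at 3 months and blue at 15 months, with the mean and SD of 3 pools in black. Cebpb pools of the ages do not overlap in macrophage-like, classical monocyte-like and cDC2-like cells, Irf8 pools in classical monocyte-like cells and Klf4 pools in cDC2-like cells.

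Whether the age difference varied between classes was tested over 5860 genes in 1 fit with the pool as a block. No gene passed (0%), and 519 genes (8.86%) had an unadjusted p under 0.05. The smallest values among the 9 members measured were for Irf8 (adjusted p = 0.415), Cebpb (adjusted p = 0.429) and Nr4a1 (adjusted p = 0.441), all from edgeR. In this joint fit the log2 ratio of Cebpb in neutrophil-like cells differed from that in macrophage-like cells by 1.08. The separate fits had -0.07 and -0.81 for these classes, a smaller gap. The joint fit scaled all classes together, and the part of scaling in the gap was not tested. For Irf8 the joint fit gave a difference of -1.13 in cDC2-like cells relative to macrophage-like cells. Without the low-count filter 127 of 16805 genes were called (0.756%), among them Irf8 (adjusted p = 0.0213, edgeR) and Cebpb (adjusted p = 0.00487, edgeR). This test took in neutrophil-like cells, where Irf8 had 17.4 CPM in 15-month pool 2 and 0 in the other pools. In the separate fit of cDC2-like cells the Irf8 ratio was -0.05 without 3-month pool 3.

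Genes around the 10 factors were read from 5 lists. Of 37 other myeloid transcription factors, 34 were measured in macrophage-like, 25 in classical monocyte-like, 27 in non-classical monocyte-like, 31 in cDC2-like and 14 in neutrophil-like cells, and none passed. Their median log2 ratios lay between -0.05 and 0.08. Zeb2, a factor of monocyte and dendritic cell fate, had a log2 ratio of 0.55 in non-classical monocyte-like cells (SE 0.15, adjusted p = 0.113, edgeR). Irf7, an interferon regulatory factor, had a ratio of -0.68 (SE 0.27) in classical monocyte-like cells. In cDC2-like cells Batf, which can stand in for Batf3, had -0.74 (SE 0.21, adjusted p = 0.342, edgeR) and Ets2 had 0.83 (SE 0.27). In macrophage-like cells Nr4a3, a relative of Nr4a1, had 1.17 (SE 0.21, adjusted p = 0.183, edgeR) and Nfil3 had -0.53 (SE 0.17). In neutrophil-like cells Irf7 had -1.28 (SE 0.5) and Bach1 1.11 (SE 0.5).

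Of 16 receptors upstream of the factors, 12 to 15 were measured in each class and none passed. Ifngr1, the interferon gamma receptor chain, had log2 ratios of 0.47 (SE 0.2) in classical monocyte-like, -0.29 (SE 0.15) in non-classical monocyte-like and 0.35 (SE 0.18) in cDC2-like cells. Csf1r, the receptor for macrophage colony-stimulating factor, had 0.34 (SE 0.14, adjusted p = 0.336, edgeR) in non-classical monocyte-like cells. Tgfbr2 had 0.57 (SE 0.24) in macrophage-like cells, and Ifngr2 had -1.15 (SE 0.37, adjusted p = 0.669, edgeR) in neutrophil-like cells.

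The list of 29 immediate early and dissociation response genes, which Nr4a1 belongs to by its biology, had the only calls. It shares 4 genes with the list of other myeloid transcription factors. In non-classical monocyte-like cells the heat shock genes Hspa1a and Hspa1b fell: Hspa1a from 758 ± 289 to 315 ± 116 CPM (log2 ratio -1.39, SE 0.24, adjusted p = 0.00406, edgeR) and Hspa1b from 577 ± 186 to 264 ± 98.5 CPM (-1.25, SE 0.24, adjusted p = 0.00952, edgeR). In this class 0.441% of all genes fell. The other 24 measured there did not pass, and 13 of 26 had a ratio above 0. In cDC2-like cells 21 of 29 had a ratio below 0, with a median of -0.21, and in neutrophil-like cells 16 of 25 had a ratio above 0. Egr1 had 0.90 (SE 0.24, adjusted p = 0.392, edgeR) in neutrophil-like cells, and Fosb 1.81 (SE 0.48, adjusted p = 0.144) in classical monocyte-like cells. Mitochondrial UMIs were a median of 1.64% to 1.99% of a cell's UMIs in the 3-month pools and 2.24% to 2.71% in the 15-month pools. The part of dissociation in the values of the factors was not tested.

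The 8 genes tied to Irf8 and Batf3 in cDC1 cells and the 8 tied to Nr4a1 in non-classical monocytes had also named those classes, so their levels across classes are no finding. For age, 4 of the first 8 were measured in macrophage-like cells, each with a ratio above 0 and none called, with Cadm1 at 29.6 ± 12.4 against 102 ± 40.6 CPM (log2 ratio 1.77, SE 0.37, adjusted p = 0.276, edgeR). In non-classical monocyte-like cells the 8 Nr4a1-linked genes were all measured, 6 had a ratio above 0 and none passed. Adgre4 had 0.41 (SE 0.16, adjusted p = 0.304, edgeR) and Spn 0.31 (SE 0.16). Cx3cr1, the fractalkine receptor, had 1.30 (SE 0.36, adjusted p = 0.342, edgeR) in cDC2-like cells.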

How the data were processed

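The authors deposited 1 matrix of raw UMI counts per age, with genes and 3 hashtags in the same matrix. The counts were made with Cell Ranger 7.0.0 on mm10, per the submitters' processing notes, while the file headers name version 4.0.0. FastQC 0.11.4 is also listed. A deposited table pairs hashtags with pools. Kits were 10x 3′ v3.1, so counts mark transcript ends and levels were compared within a gene.

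Hashtags were called with HTODemux (Seurat 5.3.0, quantile 0.99), and doublets between hashtags and negatives were dropped. Doublets within a hashtag could not be removed this way, and no other doublet caller was run. Cells were scaled to 10000 counts and clustered on 2000 variable genes, 30 components and 15 neighbours (scanpy 1.11.5, Leiden resolution 0.6), without the 10 factors and the 37 other listed factors. Cells with over 1% haemoglobin UMIs were split off where they formed over 5% of a cluster. Clusters were named from marker lists, with at least 3 markers in 20% of cells. Pools held 2972982 to 22102248 UMIs.

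Counts were summed per pool and class and tested with edgeR 4.0.16 (filterByExpr, TMM scaling, quasi-likelihood), with Benjamini-Hochberg adjustment over all genes of the class. cDC1-like and mature DC-like cells had too few cells in 2 pools each and were not tested. DESeq2 1.42.0 (R 4.3.3) was an alternative, as were other filters, hashtag rules, resolutions and leaving out each pool. The scripts were tested on simulated data. Besides the 10 members, named genes are the 3 most like each member and, from each list and class, up to 4 past the test or else the 2 with the smallest p, of which the text gives a part. Some of these named genes are not reported here. The members and lists were chosen with earlier results of these data known. Intervals and floors cover counting error only.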

Additional observations from a re-analysis of the deposited data

How the results depend on the processing

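Of 587 alternative values for the 37 age ratios of members, 541 kept direction and side of the threshold, 5 passed it and 41 changed sign, and no cause was tested. Of 420 alternative class levels, 391 moved by less than 1 SD, and the top class was kept for 8 to 10 of the 10 members. Members past the test numbered 1 in macrophage-like cells without a low-count filter and in cluster 0 alone, 1 in classical monocyte-like cells with DESeq2, 1 in cDC2-like cells without a filter, and 2 for the difference between classes without a filter. Genes past the test in macrophage-like cells numbered 73 with DESeq2, 200 without a filter, 24 with the replicate block and 16 in cluster 0 alone. In classical monocyte-like cells they numbered 26 with DESeq2, 78 without a filter, 24 with the replicate block and 7 with the hashtag ratio rule. In non-classical monocyte-like cells they numbered 47 without a filter, 13 with a mean of at least 50 CPM, 40 with the replicate block and 14 with the members kept in the clustering genes. In cDC2-like cells they numbered 13 with DESeq2, 80 without a filter, 2 with a mean of at least 50 CPM, 10 with the replicate block, 12 at Leiden resolution 1.0 and 11 with the hashtag ratio rule. In neutrophil-like cells they numbered 15 without a filter. For the difference between classes they numbered 127 without a filter, 5 at resolution 1.0, 2 with the ratio rule and 1 each with the strict cell filter, clusters 0 and 1 alone and cluster 0 alone. Leaving out each pool gave 5 to 290 genes in macrophage-like, 3 to 18 in classical monocyte-like, 7 to 33 in non-classical monocyte-like, 4 to 12 in cDC2-like and 4 to 6 in neutrophil-like cells, 0 to 18 for the difference between classes, and 0 to 1 members in macrophage-like cells. Log2 ratios of the other sign in macrophage-like cells were, at Leiden resolution 0.3, with clusters 0 and 1 alone and with cluster 0 alone, -0.16, -0.13 and -0.14 for Batf3 and -0.12, -0.18 and -0.44 for Pou2f2. In classical monocyte-like cells Batf3 had 0.29 and Pou2f2 0.27 at resolution 1.0, and Id2 had 0.30 at resolution 0.3, 0.25 with members kept and 0.50 with the ratio rule. That class held 807 cells at resolution 0.3, 647 with members kept and 723 with the ratio rule, against 267 in the main clusters. At resolution 1.0 it was made of clusters of 274 and 181 cells. Without a filter Spi1 had 0.0050 and Pou2f2 0.0092 in non-classical monocyte-like and Cebpb 0.15 in neutrophil-like cells. In cDC2-like cells Irf4 had 0.020 at resolution 1.0 and Nr4a1 0.0046 with at least 50 CPM. Leaving out each pool gave, in macrophage-like cells, -0.055 to 0.57 for Batf3 and -0.15 to 0.24 for Klf4, and in classical monocyte-like cells -0.65 to 0.18 for Batf3 and -0.41 to 0.11 for Id2. In non-classical monocyte-like cells it gave -0.14 to 0.49 for Irf8, -0.016 to 0.36 for Klf4, -0.22 to 0.055 for Spi1, -0.10 to 0.23 for Id2 and -0.18 to 0.13 for Pou2f2. In cDC2-like cells it gave -0.59 to 0.23 for Irf4, -0.47 to 0.10 for Zbtb46, -0.15 to 0.11 for Nr4a1, -0.066 to 0.48 for Id2 and -0.21 to 0.71 for Pou2f2, and in neutrophil-like cells -0.047 to 0.27 for Spi1 and -0.16 to 0.022 for Cebpb. Same-numbered pools correlated at -0.108 to 0.217, so the numbers were not taken as a pairing, and the replicate block called no member. The fit of cDC2-like cells at resolution 0.3 and of neutrophil-like cells under the strict filter were not run, with 0 and 2 pools of 10 cells.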
